A study of Mus musculus with 20 samples.

Results

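The Krüppel-like factors examined here are 10 transcription factor genes of mouse liver, Klf1, Klf2, Klf3, Klf4, Klf6, Klf10, Klf11, Klf12, Klf13 and Klf15. They were chosen by gene symbol and joined by Ensembl identifier, and all 10 were listed in both RNA-seq tables, among 56884 genes in males and 18149 genes in females. The livers came from mice aged 11 to 14 weeks. For either sex there were 3 WT and 3 Midn-T livers with RNA-seq, and 2 WT and 2 Midn-T livers with ATAC-seq. Midn encodes midnolin, a protein that carries other nuclear proteins to the proteasome. In Midn-T mice an XTR cassette in the Midn gene had been inverted by Cre, which traps the transcript and turns on GFP. Cre was driven by the Albumin promoter, so the trap acts in hepatocytes, while whole liver, with its other cell types, was sequenced. The sample titles call the control mice WT and their genotype field names the uninverted Midn XTR allele, and whether the controls carried Cre is not given in the sources used here. Each table gives 1 mean normalized count per gene over the 6 libraries of 1 sex, 3 WT and 3 Midn-T, and this mean is what is described here. The comparison of Midn-T with WT for single genes is not analysed here, and since each mean pools both genotypes, the level of Midn itself cannot check the genotype labels.

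Krüppel-like factors bind GC-rich and CACCC sequences in DNA through 3 zinc fingers at the end of the protein and differ in the remainder, which recruits activators or repressors. KLF3 and KLF12 bind the corepressor CtBP. KLF10, KLF11 and KLF13 bind the corepressor Sin3, and KLF10 and KLF11 are induced by TGF-beta. KLF1, KLF2, KLF4 and KLF6 act mainly as activators, KLF1 in red cell precursors and KLF2 and KLF4 in the endothelium of vessels, among other cells. KLF15 takes part in hepatic gluconeogenesis and amino acid breakdown.

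The common part of the 10 genes is shown by the bases that encode the short linker between the first and the second zinc finger, read from the coding sequence of the canonical GENCODE M39 transcript on GRCm39. Each line gives 18 bases, 5′ to 3′ on the coding strand, and capitals mark bases that differ from the most frequent base of the 10 genes at that place.
Klf1: acGggagagaagccttaT
Klf2: acaggTgagaagccttaT
Klf3: acaggagaAaagccGtac
Klf4: acaggCgagaaAccttac
Klf6: acaggagaAaagccttac
Klf10: acaggGgaAaaAccttTc
Klf11: acaggGgagaagccttTT
Klf12: acaggagagaagccCtac
Klf13: acaggTgagaGgccttTc
Klf15: acaggCgagaagccCtTT
Each gene differed from the most frequent bases at 1 to 4 of these 18 places, so even this conserved stretch is written differently in each gene. The translated proteins ranged from 289 to 502 residues and each held 3 fingers over 81 residues, with 1 to 39 residues after the last finger. Over the 45 pairs of genes, the finger regions were identical at a median of 67.9% of residues (63.0% to 91.4%), and whole proteins at 25.9% (22.2% to 38.2%).

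**Figure D1:**
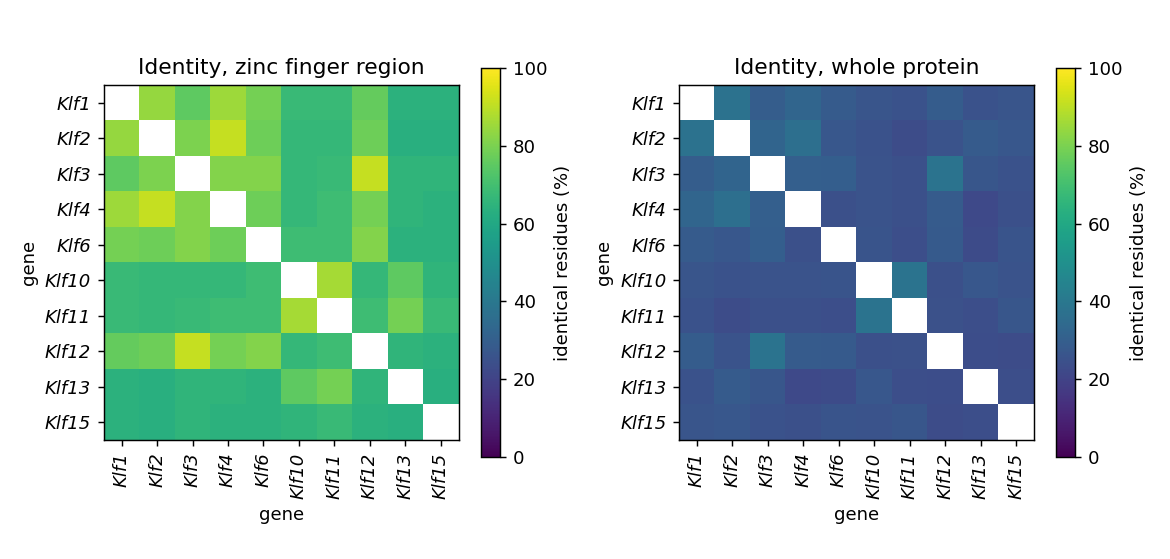
Percent of identical residues for each pair of the 10 proteins, in the zinc finger region on the left and over the whole aligned protein on the right, both on a colour scale from 0 to 100%; rows and columns are genes. Fingers are alike in every pair (63.0% or more), with Klf2 and Klf4, Klf3 and Klf12, and Klf10 and Klf11 forming the closest pairs, whereas no pair of whole proteins passes 38.2%.

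The closest fingers were those of Klf2 and Klf4 and of Klf3 and Klf12, each at 91.4%, followed by Klf10 and Klf11 at 86.4%. The CtBP-binding motif was searched as the residues PVDL followed by S or T, and of the 10 proteins only those of Klf3 and Klf12 held it. This family likeness bears on the counts, since the authors counted uniquely mapped reads of 150 bases. The longest exact stretch shared by coding sequences of any pair was 21 bases. Over all transcripts, 3 pairs among Klf3, Klf12 and Klf13 shared more than 30 bases, at most 41, so no pair shared a stretch as long as a read.

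To compare levels between genes, each mean normalized count was divided by the kilobases covered by any annotated exon of the gene, giving a level per kb. On this scale Klf15 and Klf13 were the highest members in males and Klf15 and Klf10 in females, and Klf4 was the lowest in both sexes. The highest level was 37.8 times the lowest in males and 36.0 times in females. The 3 highest members held 66.3% of the summed level of the 10 genes in males and 65.7% in females. In males, 9 of the 10 genes lay above the median of the 16631 protein-coding genes with a level above 0, which was 43.8 per kb. In females, 8 of the 10 lay above the median of 71.5 per kb over 13621 listed protein-coding genes, a higher bar because that table lists no gene with a mean under 6.61. The spread between mice is in none of the values used here. For males the relative depth of the 6 libraries could be read from the lowest means, with a ratio of 2.13 between the deepest and the shallowest library, and the errors given for males below are the counting error of the mean (SE, n = 6 libraries), which leaves out the differences between mice. For females no counting error could be given.

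**Figure D2:**
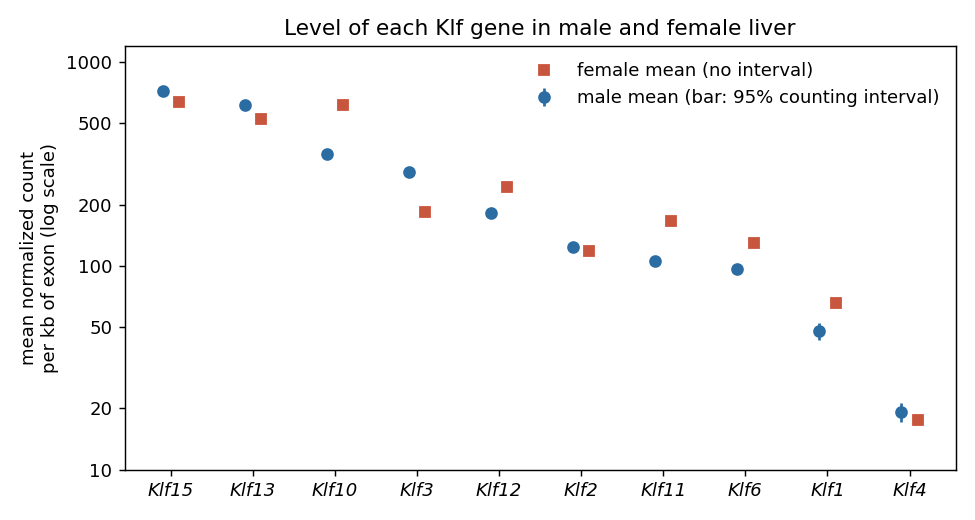
Mean normalized count per kb of exon (log axis) of each Klf gene over 6 male libraries (circles, bars 95% counting interval) and 6 female libraries (squares, no interval), ordered by the male level. Klf15 stands highest in both sexes on this scale (724 in males and 634 in females, where Klf10 at 617 is close and passes it per kb of the longest transcript) and Klf4 lowest (19.2 and 17.6), while Klf10, Klf11 and Klf3 are the members whose circle and square lie farthest apart.

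Klf15 (chr6:90438998-90452220, plus strand, GRCm39) had a mean normalized count of 5346 ± 30.3 in males and 4676 in females. Per kb these were 724 and 634, above 93.9% of protein-coding genes in males and 91.6% in females. It was the highest member in both sexes per kb of exon and held 28.3% of the summed level per kb of the 10 genes in males and 23.5% in females. In females its first place depends on the length used, since per kb of the longest transcript Klf10 was at 848 and Klf15 at 834.

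Of the Sin3-binding group, Klf13 (chr7:63536099-63588663, minus strand) had a mean of 4644 ± 28.3 in males and 3937 in females, or 617 and 523 per kb. Klf10 (chr15:38291703-38300959, minus strand) had a mean of 1492 ± 16.0 in males and 2588 in females, or 355 and 617 per kb. Klf11 (chr12:24701273-24712913, plus strand) had a mean of 471 ± 9.0 in males and 745 in females, or 105 and 167 per kb. The 3 genes together held 42.1% of the summed level of the 10 genes in males and 48.4% in females, more than the other groups in both sexes. Klf10 stood below Klf13 in males and above it in females.

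Of the CtBP-binding pair, Klf3 (chr5:64959875-64990261, plus strand) had a mean of 4308 ± 27.2 in males and 2742 in females, or 287 and 183 per kb. Klf12 (chr14:100103674-100522428, minus strand), the gene with the longest span at 418.8 kb, had a mean of 2132 ± 19.1 in males and 2841 in females, or 182 and 243 per kb. Per kb of exon, Klf3 was the higher of the pair in males and Klf12 in females. The exons annotated for Klf3 cover 14998 bases over 27 transcripts while its longest transcript has 8.24 kb, so its level per kb depends most on which exons are counted. Per kb of the longest transcript Klf3 was the higher in both sexes, at 333 beside 268 for Klf12 in females, and the exchange of places was lost.

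The activator group was the lowest, at 11.2% of the summed level in males and 12.3% in females. Klf6 (chr13:5911481-5920393, plus strand) had a mean of 432.8 ± 8.6 in males and 578.5 in females, or 96.9 and 130 per kb. Klf2 (chr8:73072726-73075502, plus strand) had a mean of 263.5 ± 6.7 in males and 252.6 in females, or 123 and 118 per kb. Both lay between the 63rd and the 71st percentile of protein-coding genes, whereas the other members of the group were lower. Klf1 (chr8:85628557-85631934, plus strand) had a mean of 73.8 ± 3.6 in males and 102.0 in females, or 47.8 and 66.1 per kb. Klf4 (chr4:55527139-55532528, minus strand) had a mean of 60.3 ± 3.2 in males and 55.5 in females, or 19.2 and 17.6 per kb, below the median gene in both sexes.

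The order per kb in males was Klf15, Klf13, Klf10, Klf3, Klf12, Klf2, Klf11, Klf6, Klf1 and Klf4. In females it was Klf15, Klf10, Klf13, Klf12, Klf3, Klf11, Klf6, Klf2, Klf1 and Klf4. Klf15 was first in both orders, though not in females per kb of the longest transcript, and Klf1 and Klf4 were last. Whether neighbours in this order differ beyond the spread between mice was not tested, as no value of a single mouse was used. Fewer cells of a type and less RNA per cell cannot be told apart in whole liver.

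The question of how the family differs between male and female liver was described by the ratio of the female to the male mean. The tables were normalized separately, so log2 ratios were centred on their median over the 16283 genes with a mean of at least 10 in both, a shift of 0.05. This ratio has 1 pooled mean on each side and no test, and sex cannot be told apart from the table or any batch that went with it. Each mean also pools 3 WT and 3 Midn-T livers, so a difference between genotypes in 1 sex would enter the ratio. Of the 10 members, 3 were at least 1.5-fold apart, Klf10 and Klf11 higher in females and Klf3 higher in males, against 11.6% of all compared genes. Of the 1892 genes past that fold, 62.9% were higher in females, and 74.6% with the tables scaled to equal sums without the 10 largest genes. The median size of the log2 ratio was 0.37 for the members and 0.20 for all genes.

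Klf10, whose product is a TGF-beta-inducible repressor, was 1.68-fold higher in females (log2 ratio 0.74), a size larger than that of 93.0% of compared genes. Klf11, its closest relative in the finger region among the Sin3-binding group, was 1.53-fold higher (log2 ratio 0.61), just past the fold used. The remaining gene of that group, Klf13, had a log2 ratio of -0.29 and lay on the male side. Klf3, the CtBP-binding repressor, was 1.63-fold higher in males (log2 ratio -0.70, larger than 92.0% of genes), while Klf12, which shares 91.4% of its finger residues, had a log2 ratio of 0.36. In each of these groups, then, the members lay on both sides of the median gene.

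The other members were less than 1.5-fold apart. Klf1 and Klf6 had log2 ratios of 0.42 and 0.37, and Klf15, Klf4 and Klf2 had -0.24, -0.17 and -0.11. In all, 5 members lay on the female side and 5 on the male side. Centring on the median splits all compared genes evenly in the same way. Each member stayed on its side under the 4 scalings run. These shift every log2 ratio alike, by at most 0.08, so no member could change side, and Klf2 came nearest to 0, at -0.03. No member was 2-fold apart, against 3.49% of all compared genes (569 of 16283).

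**Figure D3:**
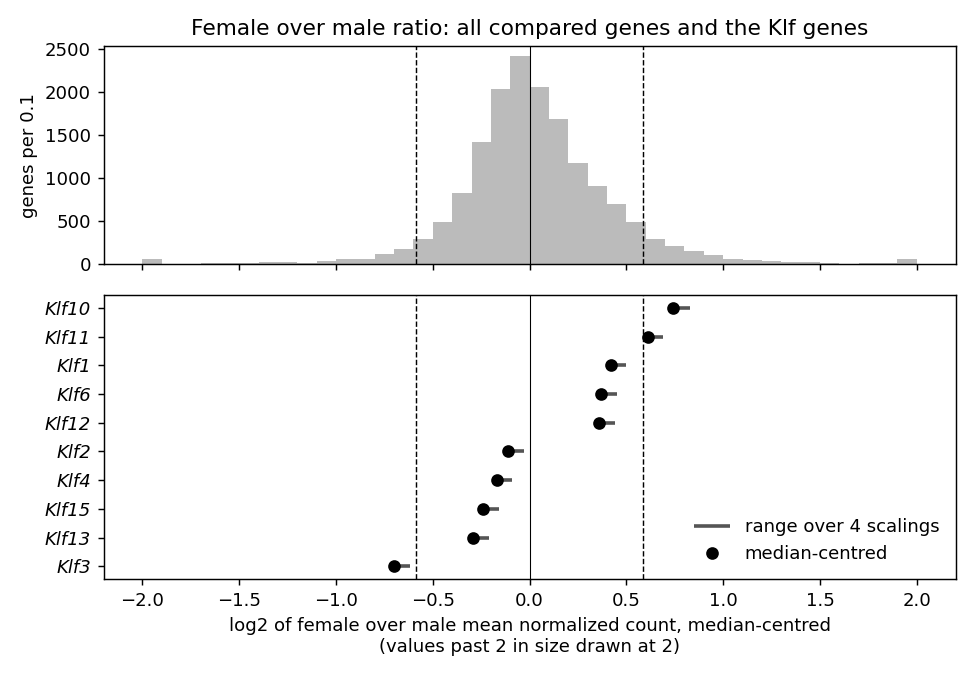
Upper panel, number of genes per 0.1 step of the log2 female over male ratio for the 16283 compared genes; lower panel, the median-centred ratio of each Klf gene (point) and its range over 4 scalings of the tables (line), with dashed lines at 1.5-fold. Klf10 and Klf11 lie past the right dashed line and Klf3 past the left one, and no line crosses 0.

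The cell types of the liver were followed with marker genes. Hepatocyte markers were at a summed level of 5.72e+05 per kb in males and 6.53e+05 in females (6 of 6 genes listed), as the tissue label says, with Alb the highest, followed by Apoa1 and Cyp2e1. The log2 ratio was 0.38 for Alb, and the other 5 markers lay on the male side, from -0.72 to -0.06, with a median of -0.19 over the 6 and 1 of them, Tat, past 1.5-fold. The 6 endothelial markers, of the cells in which KLF2 and KLF4 are best known, led by Stab2, Kdr and Cdh5, summed to 1.54e+03 per kb in males and 1.77e+03 in females, with log2 ratios from -0.48 to 0.23 and a median of 0.16, beside -0.11 for Klf2 and -0.17 for Klf4. The 6 erythroid markers, of the cells in which KLF1 is best known, led by Hbb-bs, Hba-a1 and Alas2, summed to 3.42e+03 per kb in males and 3.44e+03 in females. Of the 5 erythroid markers compared, 4 lay between 0.24 and 0.61, beside 0.42 for Klf1, and Alas2, which encodes the first enzyme of haem synthesis in red cell precursors, was at -2.29, from a mean of 2685 in males and 569 in females.

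The 6 stellate cell and fibroblast markers, cells in which KLF6 and TGF-beta, the inducer of KLF10, are known to act, all lay on the female side, at log2 ratios from 0.28 to 0.45, and summed to 717 per kb in males and 954 in females, led by Dcn, Reln and Lrat. Klf6 at 0.37 lay inside that range, as did Klf12 at 0.36 and Klf1 at 0.42. Klf10 at 0.74 lay above it, as did Klf11 at 0.61, and the other members lay on the male side. The 6 Kupffer cell markers, led by Cd5l, Clec4f and Vsig4, summed to 3.07e+03 per kb in males and 3.24e+03 in females, with log2 ratios from -0.12 to 0.32. The 4 cholangiocyte markers, led by Sox9, Epcam and Krt19, summed to 87.5 and 97.0, with log2 ratios from -0.28 to 0.90. Their median was 0.53, and 2 of them were past 1.5-fold, higher in females. None of these markers was at 0 in either sex. The part of these cell types in the Klf ratios was not tested.

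**Figure D4:**
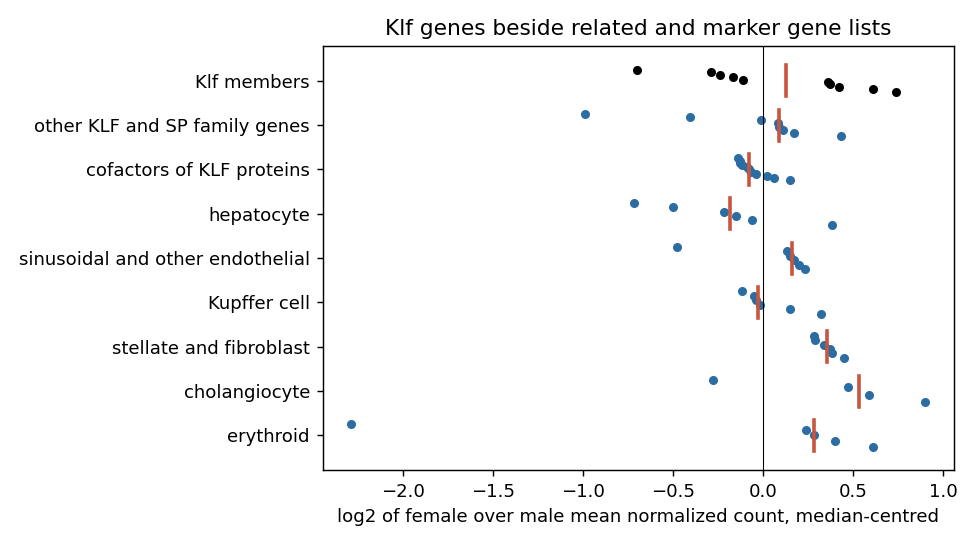
Median-centred log2 female over male ratio of each gene with a mean of at least 10 in both sexes (points) and the median of each list (vertical bars), for the 10 Klf genes, their relatives, their cofactors and 6 cell type marker lists. The Klf genes spread from -0.70 to 0.74, the cofactors only from -0.14 to 0.15, and the stellate and fibroblast markers lie together from 0.28 to 0.45.

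Among the 16 other genes of the KLF and SP family, which share the same finger fold, all 16 were listed in males and 9 in females. The highest per kb were Klf9, a glucocorticoid-inducible factor, at 602 in males and 658 in females, Sp1 at 271 and 299, and Sp3 at 230 and 267. In males, Klf9 would thus rank with the 3 highest members described above, and the ubiquitous Sp1 and Sp3 between Klf3 and Klf12. In females, Klf9 lay above every member per kb of exon, Klf15 at 634 included. The shares of the summed level given above leave Klf9 out. The 8 relatives compared had log2 ratios from -0.99 to 0.43, with a median of 0.09. Only 1 was past 1.5-fold, Klf16 at -0.99, higher in males. This was larger in size than the ratio of any of the 10 members, which ran from -0.70 to 0.74. In males Klf14 and Sp8 were listed at 0.

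The 11 cofactors fixed as a list hold CtBP, Sin3, histone deacetylases, acetyltransferases and ubiquitin ligases that act on KLF proteins. All 11 were listed in both sexes and none was past 1.5-fold, with log2 ratios from -0.14 to 0.15 and a median of -0.08. The highest per kb were Kat2b, an acetyltransferase, at 939 in males and 894 in females, Wwp1, a ubiquitin ligase, at 458 and 434, and Crebbp, an acetyltransferase, at 311 and 327.

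The ATAC-seq lists give windows of 500 bases that the authors selected for a difference in accessibility between Midn-T and WT liver. The selection was at a false discovery rate in females and at an unadjusted p-value in males. The paper reports that no male peak met the false discovery rate used for females, and treats the male list as exploratory. Only the positions of these windows are used here, and the sex of each list is the one the authors gave it. For the counts of livers, ATAC-seq libraries were assigned to sex and genotype by library name, as 5 of the 8 titles name another sex or genotype. Which libraries entered each list cannot be checked from the positions. In females, none of the 217 windows was centred within 100000 bases of the start of a member, against 1.75% of 21770 protein-coding genes, and the nearest lay 136.7 kb from Klf13. In males, 1 member, Klf15, had one of the 179 windows within that distance, against 2.78% of protein-coding genes, and the next nearest lay 797 kb from Klf1.

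The Klf15 window was centred 11.1 kb upstream of the gene's start, in the interval between Klf15 and Cfap100, inside the annotated span of the long noncoding RNA gene Gm67990. The next protein-coding starts were those of Cfap100 at 22.0 kb and Aldh1l1 at 35.5 kb. Its central 300 bases, the only listed stretch near a member, are chr6:90427715-90428014 of GRCm39, plus strand, taking the deposited starts as counted from 0. They are printed below with capitals for CACCC, the core of the sequence that Krüppel-like factors bind, searched on both strands (CACCC or GGGTG).
Klf15 window: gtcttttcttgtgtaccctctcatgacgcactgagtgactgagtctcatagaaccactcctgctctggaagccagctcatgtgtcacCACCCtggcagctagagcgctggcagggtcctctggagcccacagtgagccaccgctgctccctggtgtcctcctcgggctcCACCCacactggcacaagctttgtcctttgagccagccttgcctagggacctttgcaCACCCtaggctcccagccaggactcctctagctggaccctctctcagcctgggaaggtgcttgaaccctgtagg
The whole window held CACCC 3 times, all in the stretch shown, and 54.0% of its bases were G or C. At least 1 CACCC stood in 79.3% of the 179 male windows and 64.1% of the 217 female windows, and 3 or more in 31.3% and 16.1%. These are shares among the listed windows only, and no share over other regions of that size was taken. The paper reports KLF family motifs enriched in the male windows of decreased accessibility, as an exploratory result. The counts here pool windows of both directions. A match describes the letters and does not show that a factor binds there.

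**Figure D5:**
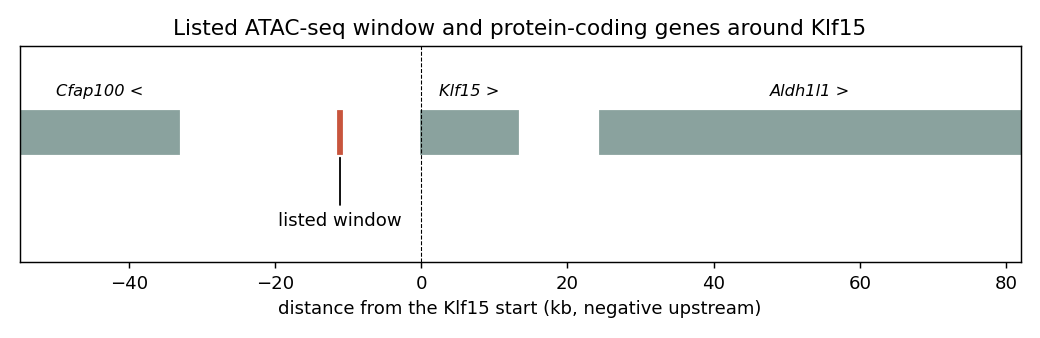
Position of the listed male ATAC-seq window (red) and of the protein-coding genes (grey boxes, cut at the plot edges, arrowheads give the strand) around Klf15, in kb from the Klf15 start. The window is centred 11.1 kb upstream of Klf15 and no protein-coding gene lies between them.

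At the promoters, taken as 250 bases before to 50 after the annotated start on GRCm39, CACCC stood in 4 of the 10 genes (Klf1, Klf2, Klf12 and Klf13), against 57.3% of 21757 protein-coding promoters. The start, here and for the window distances, is the outermost 5′ end over all transcripts of a gene. It need not be the start of the canonical transcript. Klf12 had 6 copies, the most of the 10. The longer GGGTGTGG was in none of the 10, against 4.1% of promoters. The GC box GGGGCGGGG, searched on both strands like the others, stood in 4 members (Klf2, Klf4, Klf12 and Klf13), against 11.4% of promoters. The share of G and C was over the median promoter's 52.3% in 8 of the 10 genes, and below it in Klf1 and Klf3.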

How the data were processed

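The authors aligned RNA-seq reads with STAR 2.7 to GRCm39 (Ensembl release 110), counted uniquely mapped reads per gene with HTSeq and used DESeq2 for the males and the females apart. The signal taken from the deposited tables is the authors' mean normalized count, counts divided by size factors and averaged over 6 libraries. The other deposited columns hold the authors' comparison of Midn-T with WT (log2 fold change, its error, Wald statistic, p-values and, for ATAC-seq windows, a direction), and none was used. ATAC-seq peaks, called with MACS2 and merged over samples, were set to 500 bases, and edgeR was run by the authors.

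From these, levels per kb, female over male ratios (mean of at least 10 in both tables, 1.5-fold) and distances to gene starts in GENCODE M39 were computed with Biopython 1.88, pandas 2.3.3 and numpy 2.4.6 under Python 3.11.15. All 5611 male means above 0 and under 0.6 were sums of whole reads over 6 size factors (tolerance 4e-06). GENCODE M39 held 56323 of the male and 18045 of the female genes. Steps were tested on simulated data. No test was run, as no value of a single library was used. The alternatives were other scalings, filters, folds and lengths. Named genes were the 10 members and, of the other lists, the 3 of highest level per kb. Alas2, Tat, Klf14, Klf16, Sp8 and the window's neighbours were named after their values were seen. The members and lists were chosen with earlier results of these data known. The use of translated GENCODE coding sequence was chosen after seeing the data. A marker list is not reported here.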

Additional observations from a re-analysis of the deposited data

How the results depend on the processing

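The 3 Klf genes past 1.5-fold between the sexes were the same count under every scaling and filter run, and 0 at a fold of 2. These settings could hardly lower the count. The other scalings all moved log2 ratios toward females, so Klf10 and Klf11 could not drop out, and Klf3 was at -0.62 under the largest shift. All 3 genes had means over 100, so no filter run could leave them out. A shift toward males was not run, and Klf11 at 0.61 lay just past the fold, at 0.58. With a mean of at least 100 in both tables, 8 members rather than 10 were compared. The 1892 of 16283 compared genes (11.6%) became 791 of 10793 (7.33%) with that mean. At a fold of 2 they were 569 of 16283 (3.49%). The count of all genes stayed within 1.5 times under the other scalings and filters. Against the order per kb of exon, 4 of the 10 genes kept their place in males when the mean normalized count was not divided by length. With the length of the longest transcript, 8 kept their place in males. There Klf3, at 522.8 per kb, passed Klf10, at 488.5, into the 3 highest. In females, 6 kept their place without length and 6 with the length of the longest transcript, by which Klf10 passed Klf15 and Klf3 passed Klf12. Finger identity of 67.9% is a property of the region, as whole proteins gave 25.9%. No direction of a Klf gene between the sexes was reversed. The scalings could not reverse one, since they shift every log2 ratio alike by at most 0.08 and the smallest in size was -0.11, for Klf2. Leaving out a replicate and a replicate block were not run, since the tables used give 1 mean per sex. No paired analysis was possible because the columns carry no replicate number and no result comes from a test. Depth limits Klf4 and Klf1 most, the members with the lowest means.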
